A study of Gallus gallus with 6 samples.

Results

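The Z chromosome of the chicken was followed through leg muscle development by the transcripts that lie on it. Of the 19937 entries in each deposited table, 907 are Ensembl transcripts on Z, and 596 of these had an FPKM of 1 or more at a stage of at least 1 table and were kept. FPKM is the number of sequenced fragments from a transcript, scaled to the length of that transcript and to the size of the library. The kept transcripts lie at 544 loci, 98 of them share a locus with another, and they carry 508 gene symbols, while 62 have no symbol. The table of E11 vs. E16 kept 584 of them, that of E11 vs. D1 578 and that of E16 vs. D1 549, against 11327, 11120 and 10392 transcripts on chromosomes 1 to 28. The other 311 Z transcripts stayed under 1 in every table, and 159 were listed at 0 at both stages of each table. At the limit for E11 vs. E16, GRIN3A was kept with a larger FPKM of 1.01, while a transcript of FANCC was left out at 0.986.

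Leg muscle was taken from Xinghua chickens, a slow-growing Chinese breed, at 3 stages: embryonic days 11 (E11) and 16 (E16), and the first day after hatch (D1, which the sample labels call P1). There were 2 libraries per stage, made from total RNA after removal of ribosomal RNA, and no treatment or genotype separates the stages. The labels give the sex of all 6 libraries as female. Each table holds 1 FPKM per stage over both libraries, so there is no spread over libraries, no test across them was possible, and whether the 2 libraries of a stage were alike is not known.

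In birds the female carries 1 Z and 1 W chromosome and the male a pair of Z chromosomes. Compensation for the difference in Z copies is incomplete in birds and works gene by gene, so that many Z genes are transcribed at a higher level in males. W carries a small set of genes, most of them partners of Z genes, and is absent from males. Z holds genes of many roles in muscle, among them genes of the contractile fiber, of mitochondria and of growth hormone signaling.

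Transcripts were compared by the log2 ratio of the later to the earlier stage, each FPKM raised by 0.1, and called higher or lower from a fold of 2. The 3 tables hold the same stages on different scales. For instance, entries with a D1 FPKM above 1 in both tables that hold D1 were taken. Their D1 values in the E16 vs. D1 table, divided by those in the E11 vs. D1 table, had a median ratio of 0.853. Levels are set side by side only inside 1 table, and the 3 comparisons share their stages, so they are not independent of each other. The tissue carried the defining transcripts of muscle, as all 11 skeletal muscle markers in the tables were kept, with a summed FPKM of 44362 at E16 against 1914 at E11. Kidney and epidermis markers were found mainly at E11. The summed FPKM of 13 kidney markers was 5.71 at E16 against 195 at E11 (3 of them were listed at 0 at E16), and that of 13 epidermis markers was 15.8 against 201. Over 12 cartilage markers it was 132 at E16 against 288 at E11, and over 10 fat cell markers 1539 against 71.6. Over 10 endothelium markers it was 382 against 160, and over 9 red cell markers 3129 against 1566. The red cell markers stood on both sides, with 3 at least 2-fold higher and 2 at least 2-fold lower at E16. On chromosomes 1 to 28, 13.5% were higher and 12.3% lower. A smaller number of cells and less RNA per cell cannot be told apart in such bulk samples. From E16 to D1 the sums of muscle, kidney and epidermis markers differed less: 43886 at D1 against 31278 at E16 for muscle, 3.09 against 2.55 for the 2 kidney markers kept and 9.89 against 9.53 for the 6 epidermis markers kept. That of the 7 red cell markers kept was 1020 at D1 against 2200 at E16, with 1 at least 2-fold higher and 3 lower. On chromosomes 1 to 28, 10.6% were higher and 10.5% lower over that step.

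The W transcripts stood lower at D1 than at both embryonic stages. Of 16 W entries, 6 had an FPKM of 1 or more, none of them with a gene symbol in the tables. In E16 vs. D1, ENSGALT00000015015 had an FPKM of 6.48 at D1 against 17.0 at E16, ENSGALT00000022940 of 5.80 against 11.8, and ENSGALT00000022414 of 3.46 against 7.13. The other 3 were lower at D1 as well: ENSGALT00000023322 (FPKM 7.45 at D1 and 9.78 at E16), ENSGALT00000045252 (2.08 and 3.93) and ENSGALT00000045004 (1.31 and 2.31). The summed FPKM of the 6 was 26.6 at D1 against 51.9 at E16, a ratio of 0.512, and their median log2 ratio was -0.95. Only 11.1% of the transcripts on chromosomes 1 to 28 had a log2 ratio as low as that or lower. From E11 to D1, 5 of the 6 were lower and the exception was ENSGALT00000023322 (FPKM 8.73 at D1 and 6.70 at E11); the sum was 31.1 at D1 against 48.8 at E11 and the median log2 ratio -0.83. From E11 to E16, 4 of the 6 were higher, with a summed FPKM of 73.6 at E16 against 58.8 at E11. The labels name the D1 libraries female like the others. According to the paper, birds were sexed by PCR of the CHD1 gene, but it gives no result per library. Since each D1 value merges 2 libraries, a library without W and a lower W level in both cannot be told apart, and this limit holds for every Z and W value at D1. The part of the sex of the libraries in the Z results was not tested. No value could be computed without either D1 library, since both are merged in each FPKM.

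**Figure D1:**
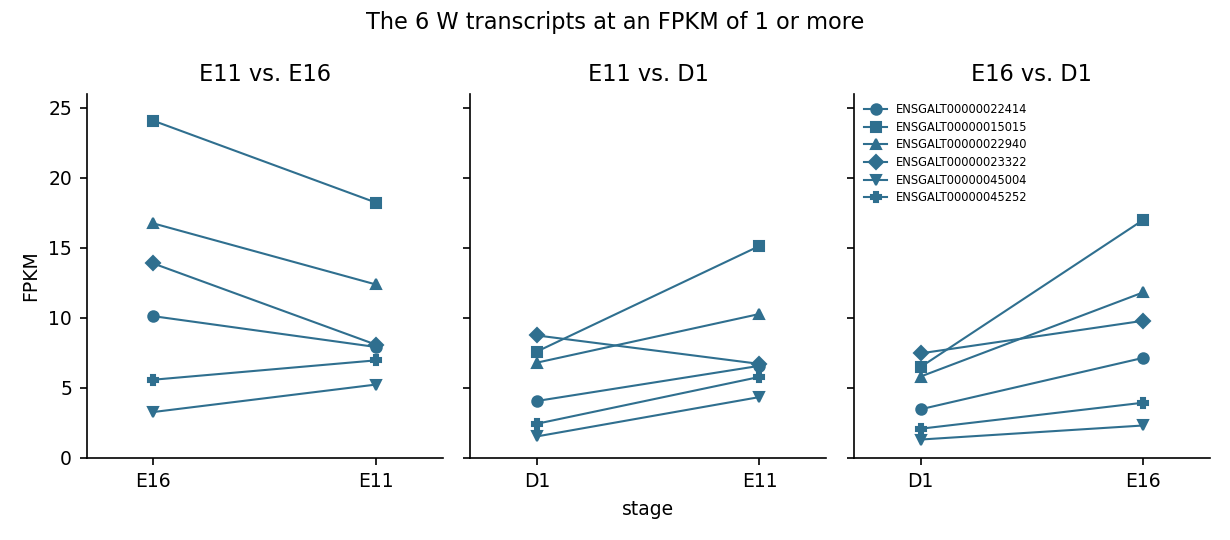
FPKM of the 6 W transcripts (vertical axis) at the 2 stages of each table (horizontal axis, later stage on the left), 1 line per transcript and 1 panel per table. All 6 lines are lower at D1 than at E16, while 4 of the 6 are higher at E16 than at E11.

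From E11 to E16 the Z chromosome moved almost as the autosomes did. The median log2 ratio of the 584 Z transcripts was 0.06 against -0.01 on chromosomes 1 to 28, a difference of 0.07, and 55.7% of the Z transcripts lay above the autosomal median. On Z 89 transcripts were at least 2-fold higher at E16 (15.2%, against 13.5% on chromosomes 1 to 28) and 59 at least 2-fold lower (10.1%, against 12.3%). The count and share of lower transcripts depended on the filter. They were 33 of 438 (7.53%) at a larger FPKM of 5 or more and 92 of 748 (12.3%) with no filter. Of the 531 transcripts kept in all 3 tables, 27 (5.08%) were lower. A transcript kept in all 3 needs an FPKM of 1 or more at E16 or D1, which by construction removes some that were lower. Autosomal shares under these filters are not given.

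From E16 to D1 the Z chromosome stood higher as a whole. The median log2 ratio of the 549 Z transcripts was 0.31 against 0.04 on chromosomes 1 to 28, a difference of 0.27, and 64.8% of Z transcripts lay above the autosomal median. The quartiles of the Z transcripts were -0.24 and 0.75, those of the autosomes -0.42 and 0.49, so the lower and the upper quartile were both shifted upwards. At least 2-fold higher at D1 were 87 Z transcripts (15.8%, against 10.6% on chromosomes 1 to 28), and at least 2-fold lower were 50 (9.11%, against 10.5%). Most of the Z transcripts thus differed by less than 2-fold.

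Over the whole span from E11 to D1 the median of the 578 Z transcripts was 0.37 against 0.01 on chromosomes 1 to 28, a difference of 0.36, and 63.3% lay above the autosomal median. On Z 168 transcripts were at least 2-fold higher at D1 (29.1%, against 20.7% on chromosomes 1 to 28) and 101 at least 2-fold lower (17.5%, against 20.7%). At a larger FPKM of 5 or more the lower count was 56 of 433 (12.9%) for E11 vs. D1. It was 29 of 390 (7.44%) for the step from E16 to D1. Autosomal shares under this filter are not given. Most of the difference in medians lay in the step from E16 to D1, over which W transcripts were lower. The genes of the muscle and the metabolism lists described below were also left out, on Z only. The Z median then lay above the autosomal one by 0.30 from E11 to D1 and by 0.24 from E16 to D1. Chromosomes 1 to 28 kept all their transcripts there, so the part of such genes in the difference was not tested.

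Set beside chromosomes 1 to 28, and leaving W aside, Z had the highest median for E16 vs. D1. Next came chromosome 16, with a median of 0.20 over 26 transcripts, and chromosome 21 with 0.15, and the lowest of the 28 was chromosome 7 with -0.04. For E11 vs. D1 only chromosome 16, with 29 transcripts, stood above Z (0.67), and chromosome 26 came after Z with 0.20. For E11 vs. E16 chromosomes 16 (0.46) and 26 (0.20) stood above Z. The medians of the 28 autosomes describe these libraries and are no test, since genes of a chromosome are not replicates.

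**Figure D2:**
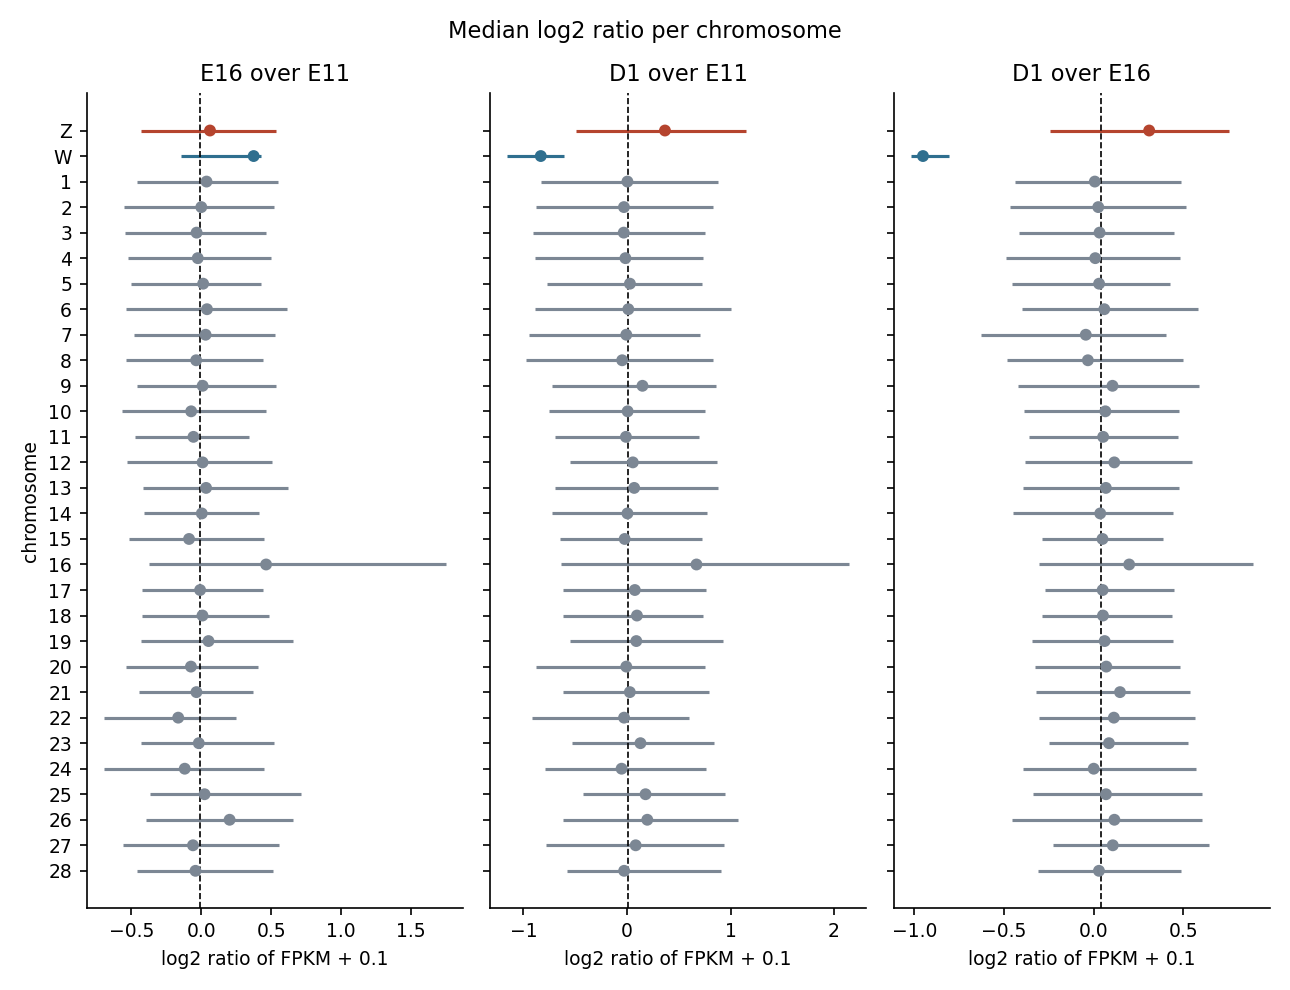
Median log2 ratio of FPKM + 0.1 per chromosome (points) with the range between its quartiles (lines), for Z (red), W (blue) and chromosomes 1 to 28 (grey), 1 panel per comparison. The dashed line is the median over chromosomes 1 to 28. Z lies at 0.31 and W at -0.95 for D1 over E16, on either side of the autosomes.

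The higher level at D1 was spread along the chromosome. Z was divided into 9 bins of 10 Mb from its first base, of which the ninth holds only the last stretch with 18 transcripts. For E16 vs. D1 the medians of the 9 bins ran from 0.18 to 0.39, and all 9 lay above the autosomal median of 0.04. The autosomes were cut in the same steps of 10 Mb, and 102 bins with at least 15 transcripts were used. Short chromosomes and chromosome ends count as bins too, so not all of these are of full width. For E11 vs. D1 the highest autosomal bin, at 0.67, had the median of the whole of chromosome 16 (29 transcripts). For E16 vs. D1, 5 autosomal bins had a median as high as the lowest Z bin, and the quartiles of the autosomal bins were -0.03 and 0.09. For E11 vs. D1 the 9 bins ran from 0.13 to 0.57, again all above the autosomal median, and 22 autosomal bins reached the lowest of them. For E11 vs. E16, by contrast, the bins ran from -0.05 to 0.37, 7 of 9 lay above the autosomal median, and 72 autosomal bins reached the lowest. Only the fifth bin, from 40 to 50 Mb, stood clear of the other Z bins over that step, with a median of 0.37. The highest autosomal bin stood at 0.46. In the fifth bin 16 of 61 transcripts (26.2%) were at least 2-fold higher and 4 (6.56%) lower. Of all Z transcripts 15.2% were higher and 10.1% lower, and on chromosomes 1 to 28 13.5% and 12.3%. The fifth bin was singled out after its values were seen.

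The third and the fourth bin, from 20 to 40 Mb, had the smallest medians for both comparisons with D1. For E16 vs. D1 they stood at 0.18 and 0.19, and for E11 vs. D1 at 0.18 and 0.13. In bins of 5 Mb the low stretch lay between 25 and 35 Mb. For E16 vs. D1 the median was 0.08 from 25 to 30 Mb (26 transcripts) and -0.08 from 30 to 35 Mb (29 transcripts), while the other 15 bins ran from 0.22 to 0.49. For E11 vs. D1 the same stretches stood at 0.09 and -0.23, against 0.18 to 0.76 elsewhere. This stretch holds DMRT2, which encodes a transcription factor of somite muscle precursors, SMARCA2, a chromatin remodeler, and KLF9. These genes did not all stand low: for E16 vs. D1 the log2 ratio of DMRT2 was -0.35, that of SMARCA2 0.24 and that of KLF9 4.82. The stretch was picked out after its values were seen.

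**Figure D3:**
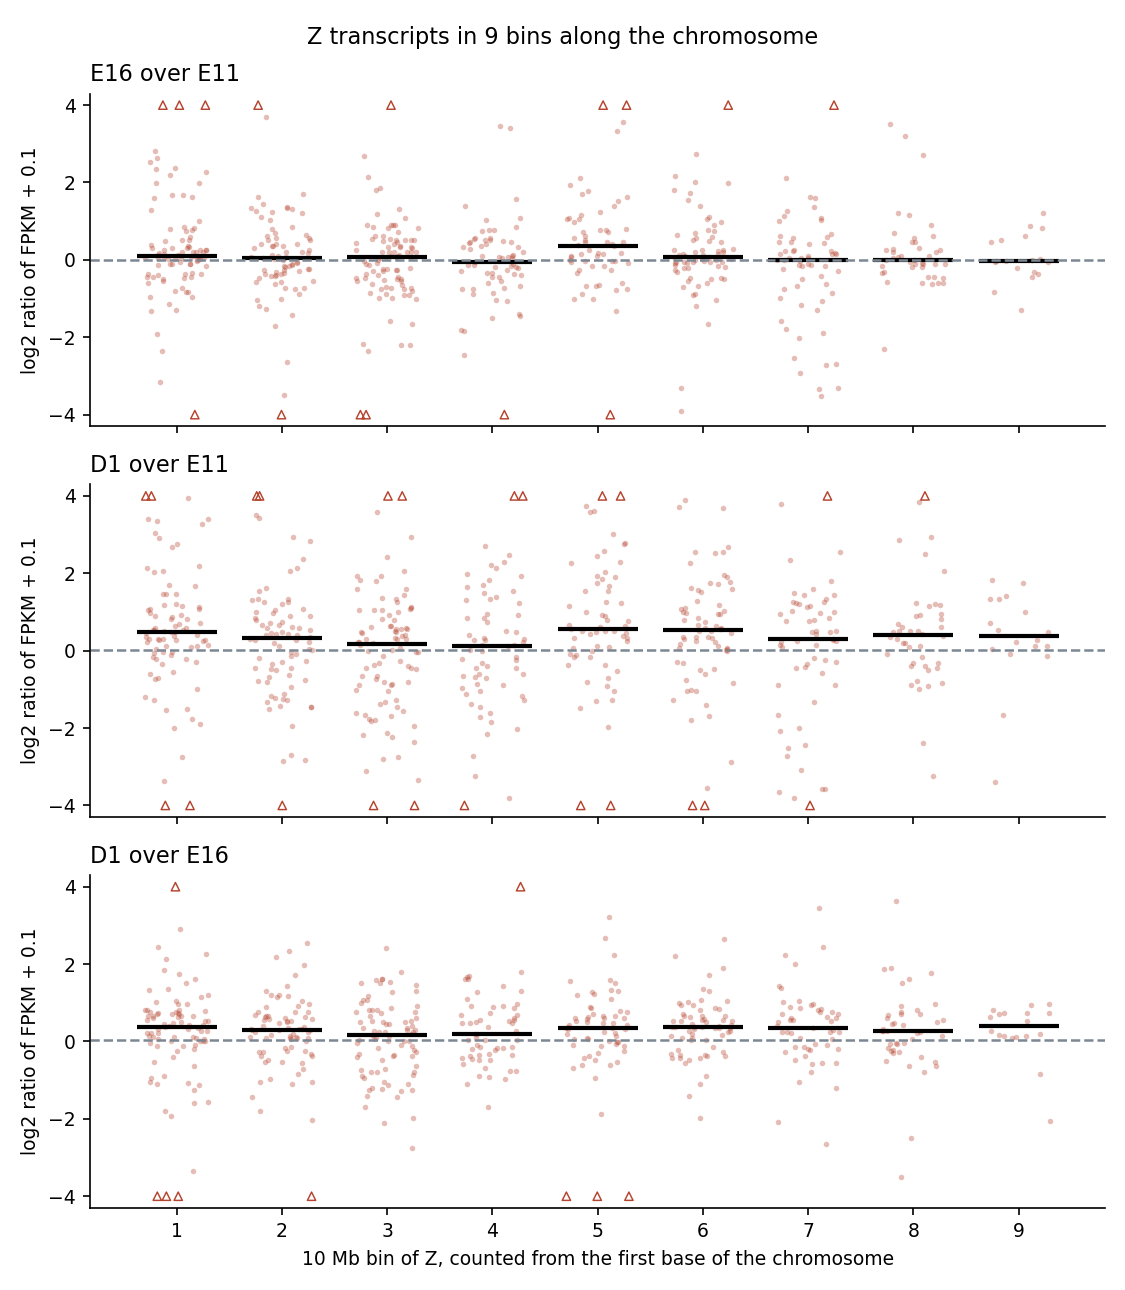
Log2 ratio of FPKM + 0.1 of each Z transcript (points) in 10 Mb bins counted from the first base of the chromosome, 1 panel per comparison. Black bars are bin medians, the dashed line is the median of chromosomes 1 to 28, and open triangles are transcripts beyond 4 on either side. In both comparisons with D1 all 9 bars lie above the dashed line, and for E16 over E11 they lie close to it in most bins.

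Among transcripts with an FPKM of 1 or more, median levels on Z were below those of the autosomes at each stage, and nearest to them at D1. In the table of E11 vs. D1 the median FPKM of Z transcripts was 8.46 at D1 and 6.87 at E11, and that of chromosomes 1 to 28 was 8.97 at D1 and 8.67 at E11. The ratio of Z to autosomes was thus 0.944 at D1 and 0.792 at E11. In the table of E16 vs. D1 the ratio was 0.893 at D1 and 0.826 at E16, and in that of E11 vs. E16 it was 0.830 at E16 and 0.800 at E11. With no filter on low values the ratio at D1 stood above 1, at 1.05 in the first of these tables and 1.02 in the second.

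The shift was not confined to weak or to abundant transcripts. For E16 vs. D1, Z transcripts with a larger FPKM from 1 to 5 had a median 0.22 above that of autosomal transcripts in the same range. The difference was 0.27 from 5 to 20, 0.34 from 20 to 100 and 0.36 at 100 or more. The last class holds only 35 Z transcripts. For E11 vs. D1 these differences were 0.22, 0.34, 0.38 and 0.17, and for E11 vs. E16 0.15, 0.08, 0.11 and -0.01. The comparison within a class is needed because abundant transcripts as a whole stood higher at the later stage: autosomal transcripts at 100 or more had a median of 1.19 for E11 vs. D1.

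Genes on Z were then described by role. Each symbol was represented by its most abundant transcript. The muscle and metabolism lists share CKMT2 and FBP2, and ATP5A1 is on the lists of W partners and of metabolism. THBS4, SVEP1 and ITGA1 are on both the muscle and the extracellular matrix lists. FST is on the muscle and the signaling lists, and PRLR on those of signaling and of sex and plumage color. Such genes count in each of their lists. The first group is Z genes known to have kept a partner on W. Of 24 such genes listed, 7 were found on Z by symbol, all 7 were kept, and all 7 stood higher at D1 than at E16, of which 3 were at least 2-fold higher. ATP5A1, the alpha subunit of mitochondrial ATP synthase (chrZ:2151456-2159196), had an FPKM of 729.6 at D1 against 168 at E16. VCP, an ATPase that extracts proteins for degradation, had 100.2 against 35.4, and TXNL1, a thioredoxin-like protein, 75.8 against 34.0. The other 4 differed less: SUB1, a transcriptional coactivator, stood at an FPKM of 98.2 at D1 against 55.5 at E16, GOLPH3 of the Golgi at 19.2 against 13.9, and the nuclear import receptor TNPO1 at 21.1 against 19.1, while UBE2R2, a ubiquitin-conjugating enzyme, had a log2 ratio of 0.53. The median log2 ratio was 0.82, against 0.31 for Z and 0.04 for chromosomes 1 to 28. Most of these genes are abundant, however. Z transcripts with a larger FPKM from 20 to 100 had a median of 0.56 over that step, and those at 100 or more 0.75. Of all Z transcripts 15.8% were at least 2-fold higher at D1 than at E16. From E11 to E16 the median of the 7 genes was 0.18, with only ATP5A1 at least 2-fold higher (FPKM 238 at E16 and 98.0 at E11), beside 15.2% of all Z transcripts. Reads of a Z gene and its near-identical W partner can be shared between them, so these values are uncertain.

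Genes of the muscle fiber on Z stood higher at E16 and D1 than at E11. Of 16 kept genes of the muscle fiber and neuromuscular junction, 9 were at least 2-fold higher and none lower at E16 than at E11, with a median log2 ratio of 1.05. Of all Z transcripts 15.2% were higher and 10.1% lower. TMOD1, which caps the pointed ends of thin filaments (chrZ:70616135-70631808), had an FPKM of 385 at E16 against 33.8 at E11. CMYA5, a large protein at the fiber's costameres (chrZ:21981417-22025556), had 92.0 against 3.99, and the muscle transcription factor MEF2C had 115 against 57.3. Each of these is higher at E16. CKMT2, the creatine kinase of muscle mitochondria (chrZ:63574950-63597283), had an FPKM of 39.2 at E16 against 0.198 at E11, and the small heat shock protein HSPB3 (chrZ:16293207-16310592) had 88.3 against 6.80. HOMER1, a scaffold of calcium signaling, had 39.8 against 11.3. Little difference was seen for MUSK, the receptor kinase that organizes the neuromuscular junction (FPKM 5.13 at E16 and 3.70 at E11) and FST, an inhibitor of myostatin and activin (8.43 and 11.2).

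From E16 to D1, 3 genes of the same list were at least 2-fold higher and 1 lower, shares near the 15.8% and 9.11% of all Z transcripts, and the median was 0.21, against 0.31 for all of Z. CKMT2 had an FPKM of 301 at D1 against 27.7 at E16 and CMYA5 197 against 64.9. FBP2, the muscle form of fructose bisphosphatase, was the third, with 21.7 against 7.33. Lower was THBS4, a thrombospondin of tendon and muscle matrix, with an FPKM of 9.65 at D1 against 42.0 at E16. TMOD1 had 175 at D1 against 272 at E16, a log2 ratio of -0.63. Over the whole span from E11, 10 of the 16 were at least 2-fold higher and 1 lower (THBS4, FPKM 11.3 at D1 and 34.6 at E11), with a median of 1.26. Of all Z transcripts 29.1% were higher and 17.5% lower over that span. CKMT2 had the largest log2 ratio on the list, 10.4 (FPKM 353 at D1 and 0.164 at E11).

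Genes of mitochondrial and intermediary metabolism stood on both sides at D1, with more of them higher than lower. Several of the lower ones are enzymes known from kidney and liver. Of 30 kept genes, 18 were at least 2-fold higher at D1 than at E11 and 6 at least 2-fold lower, with a median of 1.35. Of all Z transcripts 29.1% were higher and 17.5% lower, so the count of lower genes is near the share on Z. ATP5A1 had an FPKM of 856 at D1 against 81.3 at E11, and COX7C of respiratory complex IV had 271 against 19.4. NNT, which couples NADPH supply to the proton gradient (chrZ:13606614-13649661), had 371 against 32.9, and NDUFS4 of complex I had 120 against 11.1. All of these act in or at the inner mitochondrial membrane. OXCT1, which lets tissues burn ketone bodies, had an FPKM of 244 at D1 against 99.2 at E11. From E16 to D1, 11 of the 27 genes kept in that table were at least 2-fold higher and 2 lower. Of all Z transcripts 15.8% were higher and 9.11% lower over that step. The median of the listed genes was 0.75, against 0.31 for all Z transcripts.

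Among the 6 genes at least 2-fold lower at D1 than at E11 were FBP1, AGXT2, GLDC, PSAT1 and DMGDH. FBP1, the fructose bisphosphatase of liver and kidney (chrZ:41305320-41316628), had an FPKM of 0.226 at D1 against 27.0 at E11. AGXT2, an aminotransferase of kidney, had 0.149 against 4.45. Both were low at E16 as well, FBP1 with 1.01 at E16 against 32.5 at E11 and AGXT2 with 0.158 against 5.35. They stood low at the stages at which the kidney markers were low, with a summed FPKM of 4.85 at D1 against 161 at E11 over 12 kidney markers, of which 4 were listed at 0 at D1. The part of kidney cells in these values was not tested. GLDC, of glycine breakdown, had an FPKM of 1.15 at D1 against 5.58 at E11, and PSAT1, of serine synthesis, 1.45 against 10.1. DMGDH, dimethylglycine dehydrogenase, had another course: it was at least 2-fold higher at E16 than at E11 (FPKM 125 and 58.9) and lower at D1 than at E16 (13.1 and 88.3).

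Genes of cell division on Z had negative median log2 ratios in all 3 comparisons. Of 24 kept genes of the cell cycle, replication and repair, 3 were at least 2-fold lower at E16 than at E11, 12 at D1 than at E11 and 7 at D1 than at E16, and none was at least 2-fold higher in any table. The medians were -0.32, -0.93 and -0.40 in the same order, below those of Z as a whole. Of all Z transcripts 10.1%, 17.5% and 9.11% were at least 2-fold lower, in the same order. On chromosomes 1 to 28 these shares were 12.3%, 20.7% and 10.5%. The 3 genes lower at E16 are thus near the share of all transcripts. SMC2, a core subunit of condensin (chrZ:66288453-66312320), had an FPKM of 9.15 at D1 against 61.3 at E11, the kinetochore protein CENPK had 2.70 against 18.7, and the mitotic kinase MELK had 0.473 against 5.88. KIF24, a kinesin of centrioles, had 0.531 at D1 against 6.39 at E11. Repair genes of the list differed among themselves. FANCC and FANCG, of the Fanconi anemia pathway of cross-link repair, were at least 2-fold lower, with an FPKM of 2.23 at D1 against 5.55 at E11 and of 0.793 against 3.24. Less than 2-fold apart were others: RAD17, of the DNA damage checkpoint, had an FPKM of 8.49 at D1 against 4.95 at E11, MSH3, of mismatch repair, 7.49 against 5.25, and XRCC4, of end joining, 6.97 against 7.94.

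Genes of the extracellular matrix and adhesion list stood on both sides. Of 15 kept genes, 5 were at least 2-fold higher and 5 at least 2-fold lower at D1 than at E11, with a median of -0.19, where of all Z transcripts 29.1% were higher and 17.5% lower. VCAN, the proteoglycan versican of embryonic matrix (chrZ:62474981-62580840), had an FPKM of 18.2 at D1 against 154 at E11, and its neighbor HAPLN1, a link protein that binds hyaluronan (chrZ:62344745-62440821), had 0.625 against 9.08. HAPLN1 is also a cartilage marker, and 9 of 12 such markers were at least 2-fold lower at D1 (20.7% on chromosomes 1 to 28), with a median log2 ratio of -2.72. Their summed FPKM was 180 at D1 against 239 at E11, as the 3 higher ones include the abundant COMP (87.2 at D1 and 2.63 at E11). Higher were LOX, which cross-links collagen and elastin (chrZ:80799753-80812305; FPKM 136 at D1 and 54.0 at E11), and annexin ANXA1 (chrZ:35881518-35899231; 75.5 and 13.4). From E16 to D1 none of 14 kept genes was at least 2-fold higher and 3 were lower, namely THBS4, VCAN (FPKM 15.5 at D1 and 32.1 at E16) and FREM1 of the basement membrane (log2 ratio -1.68). Of all Z transcripts 15.8% were higher and 9.11% lower over that step.

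Among receptors and signaling proteins, 17 were kept for E11 vs. D1, of which 5 were at least 2-fold higher at D1 and 5 at least 2-fold lower, with a median of -0.08. The share of higher ones is near the 29.1% of all Z transcripts, beside 17.5% lower. The growth hormone receptor GHR (chrZ:13287241-13417571) had an FPKM of 68.2 at E16 against 29.4 at E11 and differed little after that, with 50.1 at D1 against 48.1 at E16. LIFR, a receptor of the interleukin 6 family (chrZ:11866374-11907285), had 70.3 at D1 against 33.2 at E11. PIK3R1, the regulatory subunit of phosphoinositide 3-kinase (chrZ:21464001-21515025), had opposite differences over the 2 steps: it had 48.9 at E16 against 68.2 at E11, and 105 at D1 against 34.5 at E16. NFIL3, a transcription factor of the circadian and immune response, had an FPKM of 34.7 at D1 against 9.02 at E11. Lower at D1 were F2R, the thrombin receptor (FPKM 1.67 at D1 and 4.79 at E11), and PRLR, the prolactin receptor (1.04 and 2.46). NTRK2, a neurotrophin receptor, was at least 2-fold higher at E16, with an FPKM of 4.38 against 1.27 at E11.

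Genes of sex and of plumage color were scarcely detected. Of 9 such genes found on Z, 3 were kept in the table of E11 vs. D1 and only 2 in that of E16 vs. D1. DMRT1, the Z gene needed for testis formation in the chicken, stayed under an FPKM of 1 in all tables, with 0.0559 at D1 against 0.186 at E11 for one transcript and 0.0508 against 0.529 for the other. SMARCA2 (chrZ:26195620-26294557) was the abundant member, with an FPKM of 92.8 at D1 against 74.7 at E11. DMRT2 (chrZ:25902813-25905855) had 1.31 at D1 against 2.50 at E11. The pigment genes SLC45A2 and TYRP1 stood under an FPKM of 0.4 in every table, and TYRP1 was listed at 0 at E16 and at D1.

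**Figure D4:**
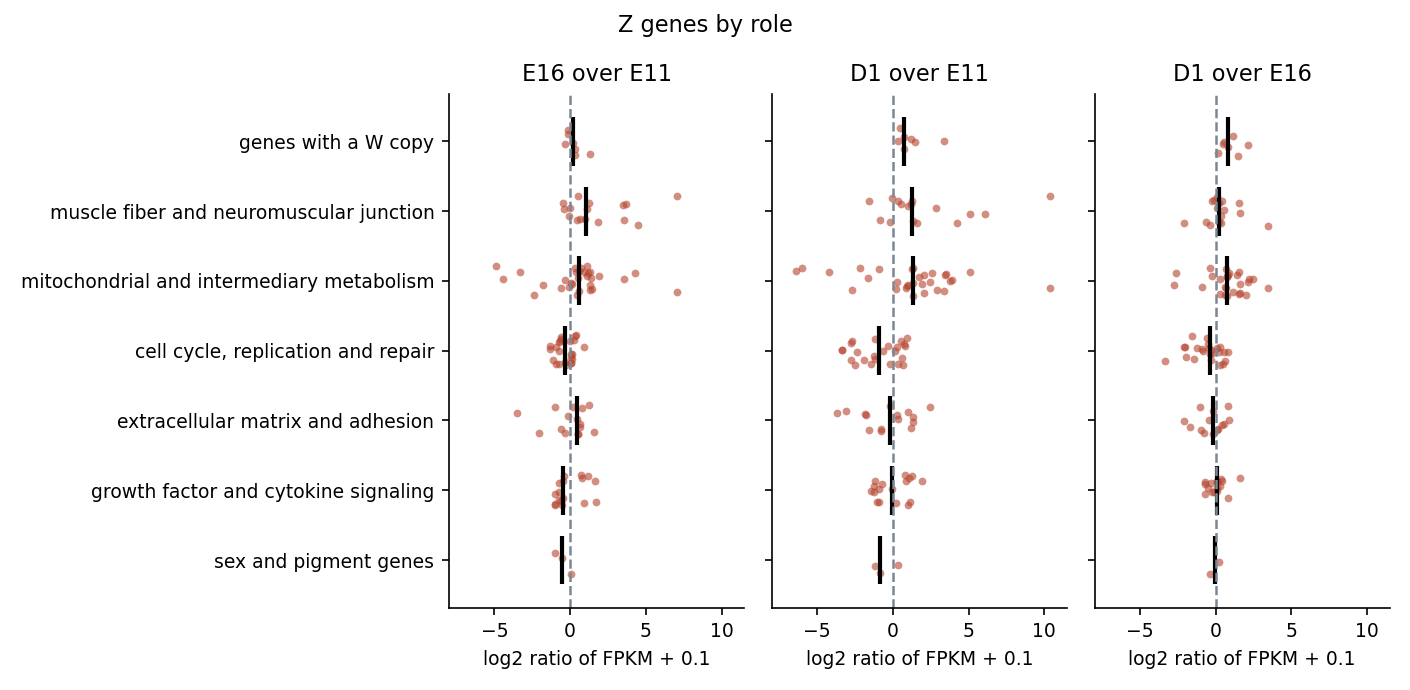
Log2 ratio of FPKM + 0.1 of the kept Z genes of 7 role lists (points, spread vertically for sight), 1 panel per comparison. Black bars are list medians and the dashed line is the median of chromosomes 1 to 28. For D1 over E16 the bar of the genes with a W copy lies at 0.82 and that of the cell cycle list at -0.40.

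Single genes were also taken from each 10 Mb bin, some of them members of the lists. The most abundant at D1 were rbf and BRT-1, for which no role is given here. The FPKM of rbf (chrZ:53307243-53309110) was 2051 at D1 against 156 at E11, and that of BRT-1 (chrZ:9066147-9077155) was 1906 against 188. For E11 vs. D1, ribosomal proteins were the most abundant in the second and the seventh bin and differed by less than 2-fold. RPL37 had an FPKM of 714 at D1 against 606 at E11, and RPS23 582 against 416. RPS6 led the fourth bin in the table of E11 vs. E16, with 1139 at E16 against 943 at E11. For E11 vs. D1 the remaining bins were led by CMYA5 (FPKM 231 at D1 and 3.31 at E11), SCARNA8 (1257 and 481), DNAJA1, LOX and NREP. SCARNA8 is listed at the same locus as HAUS6 of the cell cycle list (chrZ:33442692-33461513). The assignment of fragments there was not tested, so the values of SCARNA8 are uncertain. NREP, a small neuronal and regeneration protein, stood nearly level, with 338 at D1 and 338 at E11. The largest differences upwards at D1 over E11 belonged, apart from CKMT2, to LRRC2, a leucine-rich repeat protein (chrZ:42326478-42396311; FPKM 132 at D1 and 0.0506 at E11), and KLF9, a transcription factor that responds to glucocorticoid and thyroid hormone (chrZ:34879466-34892504; 128 and 0.345). KLF9 had most of its difference after E16, with an FPKM of 109 at D1 against 3.76 at E16. LRRC2 was high already at E16, with 52.9 against 0.0610 at E11. FEM1C, a substrate receptor of a ubiquitin ligase (chrZ:78721889-78735286), had 107 at D1 against 4.37 at E11, and the chaperones DNAJA1 and DNAJB5 had 237 against 42.1 and 26.9 against 1.66. PCSK1, a prohormone convertase (chrZ:56954953-56986064), had 13.4 against 0.805, and it is also counted on the metabolism list. SNORD58, a small nucleolar RNA, had an FPKM of 1748 at E16 and was listed at 0 at E11, and it was listed at 0 at D1 as well. The locus of this entry is chrZ:1078185-1081530. How fragments were assigned within that locus was not tested, so these values are uncertain.

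Low log2 ratios in single bins for E11 vs. D1, beside the genes above, were those of MAP1B, a microtubule protein of growing axons (chrZ:25184265-25251593; FPKM 7.53 at D1 and 77.2 at E11), SLC26A1, a sulfate transporter (0.925 and 11.8), LVRN, an aminopeptidase (3.34 and 17.8), and NUP155 of the nuclear pore (4.78 and 13.4). NUP155 is also counted on the cell cycle list. From E16 to D1, LMNB1, a lamin of dividing cells (chrZ:56036835-56059845), had 6.64 at D1 against 26.3 at E16. GLRX, a glutaredoxin of thiol repair, had the opposite course in the same bin (13.6 and 2.08).

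Neighbors on Z did not always move together. From THBS4 to DMGDH, a stretch of the third bin chosen after its values were seen, THBS4 had a log2 ratio of -1.61 for E11 vs. D1, while MTX3, of the outer mitochondrial membrane, stood at 1.35 and CMYA5 at 6.08. Next to these, PAPD4 stood at 0.59, HOMER1 at 1.59, JMY at -0.45 and DMGDH at -1.66. In a second stretch, in the seventh bin, HAPLN1 (-3.66) and VCAN (-3.07) lay side by side and were both lower at D1. XRCC4 (-0.18), TMEM167A (0.49) and RPS23 (0.49) followed with small differences, and CKMT2 (10.4) lay between ZCCHC9 (0.77) and RASGRF2 (0.83).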

How the data were processed

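RNA depleted of ribosomal RNA was sequenced in 6 leg muscle libraries, 2 each at E11, E16 and D1. The submitters' processing notes name Trim Galore, Bowtie, TopHat and Cufflinks and the build galGal4, and the methods add Cuffdiff. The authors deposited 3 tables of FPKM, each scaled by itself, in which a stage has 1 value per transcript that merges its libraries. The tables hold no read counts, so the number of reads behind a single value cannot be given; the library depths that the study states were not used. Their fold changes, test statistics, p and q columns are the study's own tests and were not used. The Cuffdiff status was used to leave out entries with too many fragments (HIDATA), of which 10, 16 and 16 stand in the tables and 0 on Z.

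Ensembl transcripts with a larger FPKM of 1 or more were kept, and log2 ratios were computed with a pseudocount of 0.1. No test was made, as each stage has 1 value. Loci count from 0 in the tables and are printed from 1. Named genes are, per 10 Mb bin and table, the most abundant symbol and those with the highest and lowest log2 ratio beyond 1 (larger FPKM 10 or more, both values above 0), and, per role list, the 3 most abundant and the 2 with the largest absolute log2 ratio; all others, among them further list members, were chosen after their values were seen. The members and lists were chosen with earlier results of these data known. Only the difference between the Z median and the autosomal median was tried on simulated data with a known shift. The counts, bins, levels and lists were not. Calculations were run in Python 3.11.15 with pandas 2.3.3 and numpy 2.4.6, and plots were drawn with matplotlib 3.10.9. Some genes that the rule names are not reported here.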

Additional observations from a re-analysis of the deposited data

How the results depend on the processing

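The difference between the Z median and the autosomal median kept its sign under every alternative run: it ran from 0.24 to 0.29 for E16 vs. D1, from 0.30 to 0.38 for E11 vs. D1 and from 0.04 to 0.08 for E11 vs. E16. The alternatives were other pseudocounts (1 and 0.01), no filter or a larger FPKM of 5 or more, and 1 transcript per gene. Others took chromosomes 1 to 5 as the reference, or only transcripts with status OK. A further 2 were chosen after the data were seen. They left the muscle and metabolism lists out of Z only, or took only the 531 transcripts kept in all 3 tables. Centring on the autosomal median leaves this difference as it is by construction, and gave 82, 164 and 89 higher transcripts for E16 vs. D1, E11 vs. D1 and E11 vs. E16, in place of 87, 168 and 89. Counts of transcripts at least 2-fold lower moved most. For E11 vs. E16 the count was 59 of 584, but 92 of 748 with no filter and 33 of 438 at a larger FPKM of 5 or more. It was 27 among the 531 transcripts kept in all 3 tables. For E11 vs. D1 the count was 101 of 578, but 56 of 433 at 5 or more. For E16 vs. D1 it was 50 of 549, but 30 of 549 with a pseudocount of 1 and 29 of 390 at 5 or more. A stricter filter holds fewer transcripts by construction. The ratio of Z to autosomes at D1 in E16 vs. D1 was 1.02 with no filter, in place of 0.893. With a pseudocount of 1, MEF2C (0.997) for E11 vs. E16 and PRLR (-0.72 for E11 vs. E16 and -0.76 for E11 vs. D1) no longer reached 2-fold. In bins of 5 Mb, 16 of 17 lay above the autosomal median for both comparisons with D1 and 14 of 17 for E11 vs. E16. No paired analysis was possible because the tables merge both libraries of a stage in 1 value. For the same reason no library could be left out. Depth limits the transcripts listed near 0 in a way that cannot be stated without read counts.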

Other observations

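The tables also hold 69 lncRNAs on Z, which the Ensembl transcripts above do not include. For E16 vs. D1, 16 of them had an FPKM of 1 or more, with a median log2 ratio of 0.21, against -0.26 for 572 lncRNAs on chromosomes 1 to 28. For E11 vs. D1 it was 0.55 over 26 lncRNAs, against 0.18 over 660, and for E11 vs. E16 -0.01 over 32, against 0.43 over 861. With so few lncRNAs on Z these medians describe the libraries only. At D1 the highest was lnc00100282 (chrZ:55540630-55557342), with an FPKM of 11.3 at D1 and listed at 0 at E11. The lncRNA lnc00099301, listed at the same locus as HOMER1 (chrZ:22100409-22190468), had 7.62 at E16 against 0.0722 at E11. HOMER1 itself had 39.8 against 11.3. How fragments were assigned between these 2 entries was not tested. A pair of entries at a single locus, lnc00100345 and lnc00100348 (chrZ:60054841-60095636), had 4.21 and 4.62 at E16 against 0.158 and 0.0651 at E11. Lower at D1 than at E16 was lnc00097454 (chrZ:31984353-31991730), with 2.42 against 4.23. The 5 named lncRNAs were picked with their values in view.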
